A study of Mus musculus with 6 samples.

Results

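The 3 replicate 2 libraries of cultured mouse 1-cell embryos were compared with the 3 replicate 1 libraries, within and across treatments. All 6 libraries of the study entered the comparison: wild-type embryos in culture with DMSO (the solvent control), with CBR-5884 (an inhibitor of serine metabolism), or with CBR-5884 and S-adenosylmethionine (SAM, the methyl donor of the cell), called DMSO, CBR and CBR+SAM below. Each treatment had 1 library labelled replicate 1 and 1 labelled replicate 2. The series' design text calls them biological replicates. Mouse strain, dose, number of embryos per library, pooling and whether a replicate number stands for a shared collection or day are not given in the sources used here. The deposited table held 36065 gene records with 1 length-scaled abundance value per library. Of these, 12249 reached a value of 1 or more in 2 libraries or more and were tested, on log2(value + 1) with treatment as a block, so that a replicate difference is the mean of the 3 differences within treatments. The p-values measure only the spread between these libraries.

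A 1-cell embryo lives mainly on messenger RNA that the oocyte stored. Part of that store is translated only after meiosis resumes, and part is degraded before and during the first division, while the embryo's own genome gives a first, weak wave of transcription called minor genome activation. RNA levels at this stage can therefore depend on the oocyte, on how far maternal RNA has decayed and on the first new transcripts. Whether the values below reflect the amount of a transcript alone, or also its poly(A) tail, was not tested. Pseudogenes, copies of genes left by reverse transcription or duplication, are often nearly identical in sequence to the gene they came from.

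The libraries carried the transcripts of this stage. Dppa3, a maternal chromatin protective factor, had values between 13565 and 17885, and Btg4, the adaptor that recruits the deadenylase to maternal mRNA, between 5437 and 6573. Estimated depth, from the steps between low values, ran from 20.9 to 26.8 M reads per library and is approximate. The column sums ran from 956209 to 1059424, and 11529 to 11873 records per library reached 1. Serpine2, a protease inhibitor made by the cumulus cells around the oocyte, had values of 524 and 496 in DMSO replicates 1 and 2, 567 and 568 in CBR, and 602 and 225 in CBR+SAM. It carried most of the summed cumulus and granulosa markers, which were between 520 and 628 in 5 libraries and 246 in CBR+SAM replicate 2, and only 4 of these 17 markers were tested, with 2 of the 17 at 0 in every library. Their part in the replicate difference was not tested. Of the 8 sperm markers, summed to between 14.4 and 17.2, and the 6 oviduct markers, summed to between 2.89 and 4.76, 2 each were tested, and no blood marker was, their sum being 0.635 at most.

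A small set of records differed between replicate numbers whatever the treatment. Vamp8, Prex2, Clec10a and Psg17 rose in replicate 2 while Cfl1, Dazl, Manba and Shmt1 fell. A few records were present in 1 replicate number and near or at 0 in the other, in all 3 treatments. In limma's test with Benjamini-Hochberg adjustment over all genes, 46 of 12249 records were called (adjusted p under 0.05), which is 0.376%. Of these, 25 were higher in replicate 2 (0.204%) and 21 lower (0.171%). With no filter on low values, where 26034 records were tested, Gm7525 alone was called, so every other call below rests on that filter.

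**Figure D1:**
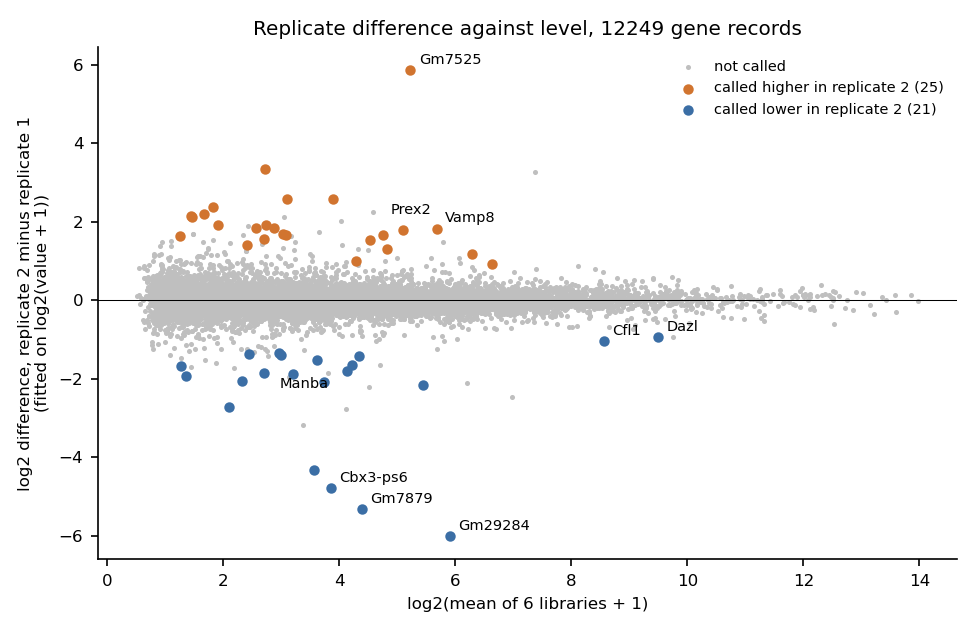
Log2 difference between replicate 2 and replicate 1 (vertical axis, fitted with treatment as a block) against the log2 mean level over 6 libraries (horizontal axis) for 12249 gene records. Orange points are the 25 records called higher in replicate 2 and blue points the 21 called lower; most of the called records lie at low and middle levels, with Cfl1 and Dazl the called genes of highest level.

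Vamp8, a SNARE protein of endosomes and secretory vesicles (chr6:72385223-72390703, mm10), had 20.7 in DMSO replicate 1 and 72.7 in replicate 2, 22.2 and 79.7 in CBR, and 21.4 and 83.7 in CBR+SAM. The 3 replicate 1 values lay within a narrow range and the 3 replicate 2 values far above it. The mean was 21.4 ± 0.784 in replicate 1 and 78.7 ± 5.57 in replicate 2 (SD, n = 3), a log2 difference of 1.83 ± 0.12 (SE) with adjusted p = 0.00534 (limma).

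Prex2, an activator of the small GTPase Rac, had 15.1 and 65.5 in DMSO, 16.6 and 43.7 in CBR, and 11.4 and 47.6 in CBR+SAM, replicate 1 first. Its log2 difference was 1.79 ± 0.17 (adjusted p = 0.0209, limma). Clec10a, a C-type lectin receptor best known from macrophages, had 10.8 and 36.0 in DMSO, 10.4 and 30.1 in CBR, and 10.8 and 33.6 in CBR+SAM. For both genes the replicate 1 and replicate 2 values did not overlap, as in all 46 called records and in 2132 of all 12249 tested records. Psg17, a pregnancy-specific glycoprotein gene, had 13.4 and 36.8, 15.2 and 38.5, and 16.99 and 42.2 in the same order. Abhd17b, which removes palmitate from proteins, had 65.1 and 121, 70.4 and 131, and 66.4 and 133. The log2 differences of Clec10a, Psg17 and Abhd17b were 1.55, 1.31 and 0.92, with adjusted p of 0.0108, 0.0172 and 0.0410 (limma).

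These 5 were all the called genes with an established name, a mean of at least 10 and a higher replicate 2 level. The rule for naming genes also required 1 direction in all 3 treatments and replicate groups that did not overlap. Under it, the 5 genes next by unadjusted p were Mterf1a, Zfp984, Dcpp1, Tceal8 and Adprm. None of them was called, with adjusted p from 0.0651 to 0.0788 (limma). Tceal8, a gene of a transcription elongation factor-like family on the X chromosome, had 248 and 472 in DMSO, 210 and 361 in CBR, and 288 and 459 in CBR+SAM. Zfp984, a zinc finger gene on chromosome 4, had 41.1 and 88.3, 34.2 and 90.6, and 51.4 and 88.0. In both, every replicate 2 value lay above every replicate 1 value, which the rule required.

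Among the genes that fell, Cfl1 and Dazl were the abundant ones. Cfl1, the actin-severing protein cofilin (chr19:5490455-5495201), had 517 in DMSO replicate 1 and 264 in replicate 2, 450 and 226 in CBR, and 556 and 251 in CBR+SAM. Dazl, an RNA-binding regulator of translation in germ cells and itself a stored maternal mRNA (chr17:50279395-50293636), had 933 and 533, 969 and 528, and 939 and 432. For each gene the replicate groups were clearly apart, while the treatments within a replicate number were close together. The mean of Cfl1 was 508 ± 53.7 in replicate 1 and 247 ± 19.7 in replicate 2, and its log2 level fell by 1.03 ± 0.11 (adjusted p = 0.0242, limma). For Dazl the means were 947 ± 19.6 and 498 ± 56.9 (SD, n = 3), and the log2 level fell by 0.93 ± 0.12 (adjusted p = 0.0477, limma). H1foo, the linker histone of oocytes, had 1036 and 560, 1327 and 776, and 1014 and 464, and narrowly missed the threshold (adjusted p = 0.0520, limma).

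The calls of Dazl, Cfl1, Abhd17b and Psg17 were lost in some fits with fewer libraries. Treatment is a block, so leaving out 1 library takes its whole pair out of the replicate comparison. Abhd17b, for example, had a log2 difference of 0.938 without either DMSO library and without both. Dazl, Cfl1 and Abhd17b lost their call when any 1 DMSO or CBR library was left out, and Psg17 when either DMSO library was. Calls also depended on settings that kept all 6 libraries. Abhd17b had adjusted p = 0.0510 with 0.1 added before the log in place of 1, and 0.102 without a trended prior (limma). Of 21 alternatives, Dazl was called in 11, Cfl1 in 13, Abhd17b in 12 and Psg17 in 17. Over all alternatives the adjusted p ran from 0.00441 to 0.417 for Dazl, from 0.00220 to 0.333 for Cfl1, from 0.00349 to 0.333 for Abhd17b and from 0.00118 to 0.223 for Psg17. Their log2 differences kept their sign throughout, between -0.996 and -0.840 for Dazl, -1.07 and -0.98 for Cfl1, 0.88 and 0.94 for Abhd17b, and 1.27 and 1.36 for Psg17.

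Manba, the lysosomal beta-mannosidase, had 31.7 and 7.61 in DMSO, 29.2 and 10.9 in CBR, and 16.5 and 2.93 in CBR+SAM. Tmem132c, a transmembrane protein gene, had 31.8 and 8.40, 22.6 and 8.86, and 27.4 and 6.58. Ankib1, a ubiquitin ligase of the RING-between-RING kind, had 28.7 and 9.66, 23.7 and 10.2, and 33.3 and 9.90. All 3 fell, with log2 differences of -1.81, -1.66 and -1.42. Under the same rule, the next genes by unadjusted p on the lower side after H1foo were Acadm, Nos1ap and Defb48, none of them called. Acadm, the medium-chain acyl-CoA dehydrogenase of fatty acid oxidation, had 79.7 and 41.1, 77.9 and 44.1, and 100 and 42.8.

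**Figure D2:**
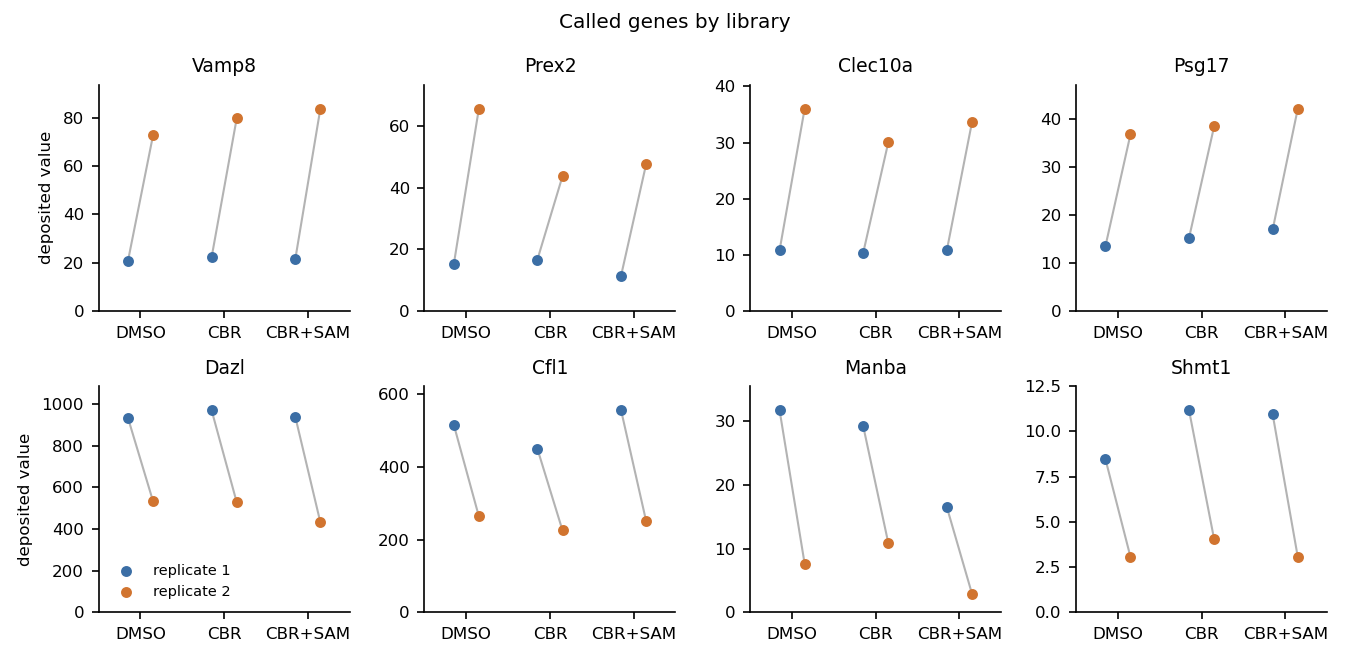
Deposited values (vertical axes, starting at 0) of 8 called genes in each library, replicate 1 in blue and replicate 2 in orange, joined within each treatment. As in all 46 called records, and in 2132 of all 12249 tested records, the replicate 1 and replicate 2 values of these 8 genes do not overlap. Examples are Vamp8 (20.7 to 22.2 against 72.7 to 83.7) and Dazl (933 to 969 against 432 to 533).

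Shmt1, the cytosolic serine hydroxymethyltransferase, belongs to the list of serine, glycine and folate metabolism. It had 8.48 in DMSO replicate 1 and 3.07 in replicate 2, 11.2 and 4.05 in CBR, and 10.9 and 3.07 in CBR+SAM. It fell in replicate 2 by 1.35 ± 0.15 on the log2 scale (adjusted p = 0.0277, limma), and each treatment showed the same direction. Of the 18 tested genes of serine, glycine and folate metabolism, Shmt1 was the called one, 9 were higher and 9 lower in replicate 2, and the median log2 difference was -0.01 beside 0.01 over all genes tested. Slc25a32, the mitochondrial folate carrier, had 31.8 and 24.5, 30.4 and 25.04, and 27.3 and 19.05 without being called. None of the 16 tested genes of the methionine and SAM cycle was called, with 1 at an unadjusted p under 0.05: Cth, of the transsulfuration branch, at 155 and 182, 176 and 229, and 195 and 227.

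Below a mean of 10, the further called genes with an established name were few. Slco1a4, an organic anion transporter, had 0.206 and 5.19 in DMSO, 0.0644 and 4.21 in CBR, and 0.155 and 5.47 in CBR+SAM. Btn1a1, a butyrophilin, had 6.70 and 0.966, 7.87 and 1.14, and 6.53 and 0.725. Slc14a1, a urea transporter, had 13.1 and 1.84, 11.5 and 3.57, and 15.3 and 3.61. Slco1a4 thus rose while Btn1a1 and Slc14a1 fell. Gstk1, a glutathione transferase, fell (8.31 and 1.83, 5.85 and 1.17, 13.5 and 2.26), and Mt4, a metallothionein, rose (1.14 and 8.47, 2.61 and 8.21, 1.70 and 11.98). The remaining ones were Dnajc5b, Olfr287 and Igkv8-26 among those that rose, and Cldn34d and Tpm3-rs7 among those that fell; Tpm3-rs7 was not called without either DMSO library.

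The records with the largest differences were pseudogenes and predicted genes. Being without an established name, they fell outside the rule for named genes and were chosen after their values were seen. Gm7525, a processed pseudogene that lies within the gene Utrn (chr10:12846088-12846541), had 0.108 in DMSO replicate 1 and 69.5 in replicate 2, 0.123 and 61.3 in CBR, and 0.556 and 86.3 in CBR+SAM. Its log2 difference of 5.87 ± 0.13 had the smallest p of all (adjusted p = 7.13e-05, limma), and no near-identical copy was found for it. Gm7879, annotated as protein-coding and a copy of the cyclophilin gene Ppih, had 44.4, 47.9 and 27.0 in the replicate 1 libraries of DMSO, CBR and CBR+SAM and was listed at 0 in all 3 replicate 2 libraries. Cbx3-ps6, a processed pseudogene of the heterochromatin protein gene Cbx3, had 25.6, 34.8 and 20.5 in replicate 1 and was likewise listed at 0 in replicate 2. Gm29284, an unprocessed pseudogene resembling the nuclear body gene Sp110, had 137, 132 and 82.3 in replicate 1 and 0, 0.618 and 2.63 in replicate 2. In the other direction, Gm12079, a copy of part of Strn, had 4.003 and 25.2, 3.86 and 26.7, and 2.14 and 21.3, and Gm7868, a copy of Txndc9, had 1.63 and 12.3, 1.76 and 17.2, and 0.927 and 11.6. These patterns of presence and near absence were the same in DMSO, CBR and CBR+SAM.

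How little separates such records from their genes is shown by 60-base stretches of 4 of them, given to show how alike the sequences are. They are the 2 records with the largest called difference in each direction for which the copy covers at least 95% of the record, the partner is protein-coding and an aligned stretch falls in its coding sequence. Sequences are from the GENCODE M21 transcripts, 5′ to 3′, and capitals mark the letters that differ between record and gene.
Gm7868: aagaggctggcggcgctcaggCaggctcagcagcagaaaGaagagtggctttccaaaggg
Txndc9: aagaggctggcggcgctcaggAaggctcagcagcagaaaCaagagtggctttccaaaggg
Gm12079: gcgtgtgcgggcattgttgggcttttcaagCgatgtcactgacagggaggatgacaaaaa
Strn: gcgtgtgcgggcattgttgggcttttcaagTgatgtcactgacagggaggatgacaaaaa
Gm29284: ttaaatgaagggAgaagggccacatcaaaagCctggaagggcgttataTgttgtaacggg
Sp110: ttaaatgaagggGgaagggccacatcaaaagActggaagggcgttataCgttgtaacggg
Gm7879: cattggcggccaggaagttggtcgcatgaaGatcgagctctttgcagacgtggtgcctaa
Ppih: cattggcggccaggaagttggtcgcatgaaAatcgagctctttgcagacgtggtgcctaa

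Over their whole alignments, Gm7868 and Txndc9 shared 98.7% of 681 bases, Gm12079 and Strn 99.6% of 244, Gm29284 and Sp110 98.4% of 255, and Gm7879 and Ppih 99.1% of 752. The records lie at chr12:69123101-69123780, chr11:27883112-27883355, chr1:84990638-84993032 and chr5:43913144-43913917. None of these 4 genes was called. Ppih had 185 and 188 in DMSO, 213 and 223 in CBR, and 197 and 281 in CBR+SAM, with a log2 difference of 0.20 that was not called (adjusted p = 0.713, limma). Sp110 had 192 and 188, 164 and 216, and 200 and 199. Txndc9, a thioredoxin-like protein gene, stayed between 1050 and 1230, and Strn, which encodes the scaffold striatin, between 117 and 136, in all 6 libraries.

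**Figure D3:**
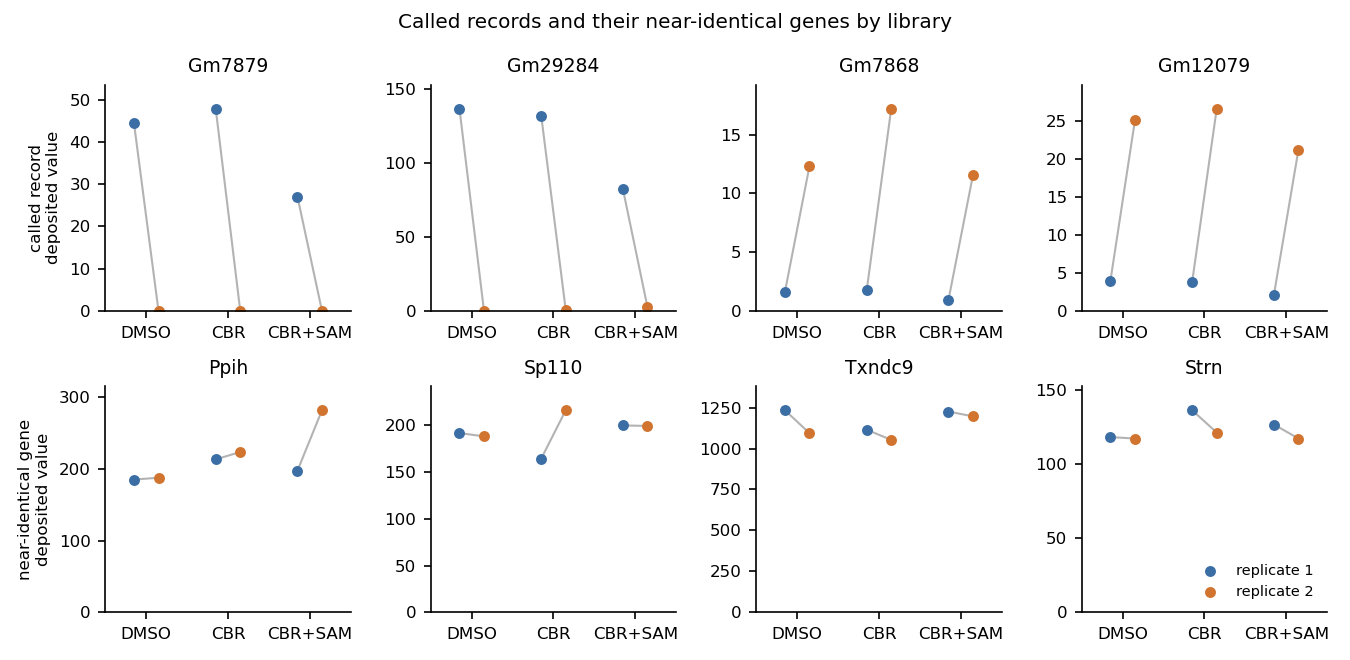
Deposited values (vertical axes, starting at 0) of 4 called records (upper row) and of their near-identical genes (lower row) in each library, replicate 1 in blue and replicate 2 in orange. Gm7879 is listed at 0 in all 3 replicate 2 libraries while Ppih lies between 185 and 281 in all 6.

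Of the 46 called records, 20 (43.5%) had a near-identical copy elsewhere (at least 95% identity over at least 50% of the transcript), beside 11.1% of all tested records. Of the 46, 18 were pseudogenes (39.1%), beside 9.43% of tested records. By class, 20 of 10339 protein-coding records without such a copy were called (0.193%), 6 of 680 protein-coding records with a copy (0.882%), and 18 of 1155 pseudogenes (1.56%). For each called record with a copy, the partner was the copy of highest mean level, which need not be the closest. Ppih was the partner of both Gm7879 and Gm8719. Among the 20 called records with a copy, 19 had a partner that was itself tested. Of these partners, 10 had a difference of the same sign as the record and 9 of the opposite sign, and the called ones were Gm13058 and Gm13100, which are each other's partner. An unadjusted p under 0.05 was found for 8 of the 19, beside 9.67% of all tested records. Cbx3, the partner of Cbx3-ps6, was lower together with it, at 6.44 and 2.58 in DMSO, 7.97 and 1.57 in CBR, and 7.12 and 2.76 in CBR+SAM, and was not called (log2 difference -1.32, adjusted p = 0.0788, limma). Because reads of near-identical sequences can be divided among records, the values of these 20 records are uncertain. When the fit was limited to records without a near-identical copy, 39 were called, an alternative added after the data were seen, and all 26 called records that it could hold were among them.

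A pair of T cell receptor segments had values of opposite direction. Trav7-6, a V segment on chromosome 14, had 75.0 and 14.2 in DMSO, 92.7 and 14.6 in CBR, and 44.0 and 14.3 in CBR+SAM, and fell (log2 difference -2.16 ± 0.21, adjusted p = 0.0209, limma). Its copy Trav7n-6 had 72.0 and 118, 62.3 and 137, and 74.8 and 130, and was not called (adjusted p = 0.0788, limma). The level of one was thus lower and that of the other higher in each replicate 2 library.

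Called records also stood side by side on chromosomes, a pattern looked at after the data were seen. All 4 called records of chromosome 4 were higher in replicate 2 and lay between 143595062 and 143916442: Gm13058, Gm13089, Gm13103 and Gm13100. Gm13100 had 12.2 and 37.0 in DMSO, 11.0 and 39.3 in CBR, and 12.7 and 43.5 in CBR+SAM, and Gm13089, a protein-coding record without a near-identical copy, had 1.91 and 7.27, 1.43 and 5.80, and 2.34 and 6.99 and was not called without either DMSO library. The ends of that stretch were set by the called records themselves, so its share of low p-values carries no weight of its own. Of its 11 tested records, 5 had an unadjusted p under 0.05, beside 9.67% of all tested records. These were the 4 called ones and Pramef6, which was lower in replicate 2 (log2 difference -0.60). Gm13058 and Gm13100 are near-identical copies (95.9% identity) and may share reads. On chromosome 1, Gm29284 and Gm16038, both lower, lay 122287 bases apart. Gm16038 had 26.6 and 0, 19.2 and 0, and 18.7 and 0.349.

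The 3 windows named next are among the 5 with the highest share. Among 203 windows of 3 Mb with at least 20 tested records, a median of 8.33% of records per window had an unadjusted p under 0.05. The window on chromosome 13 from 21 to 24 Mb had 19 of 44 (43.2%), among them Btn1a1, the iron regulator Hfe, Trim38 and 12 histone genes of the Hist1 cluster. Chromosome 14 from 51 to 54 Mb had 14 of 33 (42.4%), among them the ribonuclease genes Rnase1, Rnase6 and Ang4 and several Trav segments. Chromosome 4 from 144 to 147 Mb had 9 of 26 (34.6%), among them the zinc finger genes Zfp992, Zfp600, Zfp987 and Zfp993. By chromosome, beside 9.67% over all records, the share was 37.5% on Y (3 of 8), 15.2% on 13, 13.5% on 17 and 11.7% on 14, and 5.32% on 16. Some records in these windows belong to one gene family, such as the histone genes, and may share reads.

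The records with an H2 symbol on chromosome 17, most of them genes of the major histocompatibility complex, were also looked at after the data were seen. Of 14 tested, 4 (28.6%) had an unadjusted p under 0.05, all higher in replicate 2, beside 5.54% of all tested records on that side. They were H2-Aa, H2-T22, H2-K1 and H2-T-ps, and none was called. H2-Aa, a class II chain, had 49.9 and 94.1 in DMSO, 46.5 and 97.1 in CBR, and 66.9 and 105 in CBR+SAM (adjusted p = 0.0788, limma). H2-T22 had 6.39 and 14.4, 3.497 and 14.9, and 8.42 and 14.2, and H2-K1, a class I chain, had 6.22 and 9.58, 7.79 and 10.5, and 5.43 and 10.5. H2-T23, the most abundant of them, had 372 and 329, 365 and 334, and 271 and 517, so its CBR+SAM pair went the other way from its DMSO and CBR pairs.

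Over all tested records, 678 had an unadjusted p under 0.05 and were higher in replicate 2 (5.54%), and 506 were lower (4.13%). The values of the 2 replicate numbers did not overlap in 1123 records on the higher side (9.17%) and 1009 on the lower (8.24%). The 46 called records all belonged to these.

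How far the replicate difference was shared between treatments was described from the 3 differences, which have no library in common. Across 5939 genes whose mean reached 10, the difference in DMSO correlated with that in CBR at r = 0.599 and with that in CBR+SAM at 0.258, and CBR correlated with CBR+SAM at 0.120. Over all 12249 records the values were 0.392, 0.218 and 0.091. Genes within a library are not independent, and genes of one family or with shared reads move together, so these are descriptions. The SD of the differences was 0.353 in DMSO, 0.341 in CBR and 0.538 in CBR+SAM, and 0.892%, 1.13% and 3.57% of genes differed by more than 1 on the log2 scale. The replicates of CBR+SAM were thus the farthest apart. Of the variance of a gene over the 6 libraries, the replicate number took a median of 18.3%, treatment 30.9% and the remainder 36.2%, with 1, 2 and 2 degrees of freedom. A part with more degrees of freedom takes a larger share even with no effect present. These medians therefore do not rank treatment above the replicate number. Without CBR+SAM replicate 1 or replicate 2, 172 and 166 records were called, including all 46. Without CBR replicate 1 or 2, 78 and 79 were called, of which 40 and 41 belonged to the 46.

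**Figure D4:**
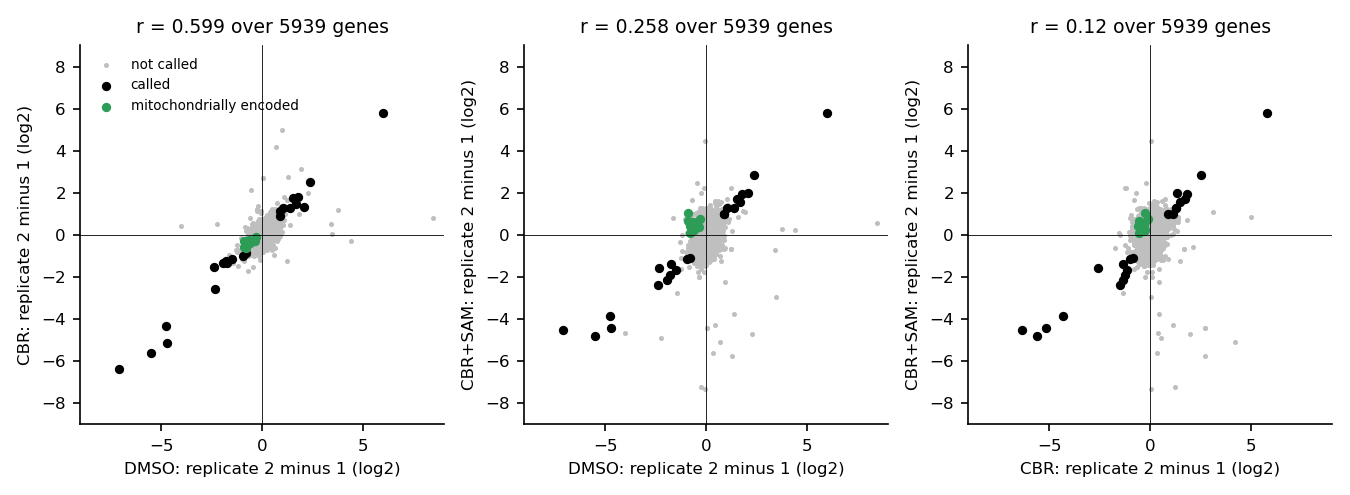
Replicate 2 minus replicate 1 (log2) in one treatment against another, for 5939 genes whose mean reached 10. Called records (black) lie along the diagonal in all 3 panels, which the call itself requires, and the 13 mitochondrially encoded genes (green) are below 0 in DMSO and CBR and above 0 in CBR+SAM.

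Most cytosolic ribosomal protein genes and nuclear respiratory chain genes had a higher mean log2 level in replicate 2, with the largest median difference in CBR+SAM, and none was called. The 65 tested translation initiation and elongation factors were split, 33 higher and 32 lower. Over all genes tested, 6261 were higher and 5986 lower in replicate 2, with 5.54% higher and 4.13% lower at an unadjusted p under 0.05. Of 83 tested cytosolic ribosomal protein genes, 71 were higher and 12 lower in replicate 2, with none called and 9 higher and 2 lower at an unadjusted p under 0.05. Their median log2 difference was 0.20, made of 0.11 in DMSO, 0.01 in CBR and 0.46 in CBR+SAM. In CBR, 42 were higher and 41 lower, whereas 72 of 83 were higher in CBR+SAM. Rpl7l1, a ribosomal protein paralog, had 24.9 and 44.6, 26.2 and 39.8, and 27.9 and 56.6. The summed value of the group was 6530 and 6580 in DMSO, 6670 and 6360 in CBR, and 6130 and 8240 in CBR+SAM, so that without the CBR+SAM pair the mean log2 change of the sum was -0.03 in place of 0.12. Many of these genes have pseudogene copies, which makes their values uncertain.

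Of the 82 tested nuclear genes of the respiratory chain, 67 were higher and 15 lower, with none called and 21 higher and none lower at an unadjusted p under 0.05. The median difference was 0.23, from 0.17 in DMSO, 0.06 in CBR and 0.46 in CBR+SAM. Atp5l, a subunit of ATP synthase, had 70.4 and 97.0, 58.5 and 75.7, and 71.0 and 117, and Ndufs6, of complex I, had 41.8 and 59.6, 33.0 and 40.8, and 41.3 and 66.1. Short transcripts were higher in replicate 2 more often than long ones: among protein-coding genes whose mean reached 10, 8.03% of those up to 758 bases and 3.8% of those from 2070 bases had an unadjusted p under 0.05 and were higher. The part of transcript length in both gene groups was not tested.

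The 13 mitochondrially encoded genes had no common replicate difference. Their summed value was 60700 and 36600 in DMSO, 60000 and 44600 in CBR, and 54100 and 76700 in CBR+SAM. All 13 were lower in replicate 2 in DMSO and in CBR, and all 13 were higher in CBR+SAM. mt-Co1, a subunit of cytochrome c oxidase, had 2677 and 1615, 2505 and 2060, and 2552 and 2960. None was called or had an unadjusted p under 0.05. The mean log2 change of the sum was -0.22, and without the DMSO pair it was 0.04, without the CBR+SAM pair -0.58. A difference between treatments in the replicate difference could not be tested, since each treatment has 1 pair.

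Canonical histone genes were also mixed. Of 33 tested, 26 were higher and 7 lower, none called, with 12 higher and 2 lower at an unadjusted p under 0.05. Medians were 0.32 in DMSO, -0.09 in CBR and 0.56 in CBR+SAM. Hist1h1a, an H1 linker histone, had 44.0 and 73.0, 35.6 and 59.3, and 39.5 and 68.4, while Hist1h3e, an H3 gene, had 5.37 and 1.86, 4.91 and 2.18, and 4.01 and 1.77. Members of this family share near-identical coding sequence, which makes their values uncertain.

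Dazl was the only called member of the list of dormant maternal mRNAs. None of the 42 tested maternal mRNA decay and deadenylation factors was called, beside 0.376% of all tested records. At that share, no call in so short a list says little. At an unadjusted p under 0.05, 1 of the 42 was higher and 4 were lower. Whether other called transcripts, such as Cfl1, came from the store of the oocyte was not tested. Of 36 tested dormant maternal mRNAs, whose translation is delayed until after meiosis resumes, 3 were lower and none higher at an unadjusted p under 0.05. Over all genes tested, those shares were 4.13% and 5.54%. Of the 36, 9 were higher and 27 lower, with a median of -0.11. The CBR+SAM pair had the largest share of this, with 30 of 36 lower and a median of -0.26, beside -0.04 in DMSO and -0.03 in CBR. Zar1, an oocyte RNA-binding protein, had 166 and 111, 176 and 114, and 157 and 117, with no overlap. Btg4 had 5437 and 6222, 5475 and 6400, and 5758 and 6573, with a log2 difference of 0.20 and adjusted p = 0.614 (limma). Cnot6l, a deadenylase of the CCR4-NOT complex, had 882 and 726, 948 and 771, and 857 and 488. Pabpn1l, the oocyte poly(A)-binding protein, had 169 and 96.1, 131 and 98.7, and 158 and 84.5, and was not called.

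Of 61 tested oocyte and maternal-effect genes, 37 were higher and 24 lower, with Dazl the called one. Nlrp14, of the NLR family expressed in oocytes, had 356 and 675, 308 and 413, and 379 and 496. Oosp2, an oocyte-secreted protein, had 771 and 1021, 730 and 910, and 715 and 1310. Zp3, of the zona pellucida, and Gdf9, an oocyte growth factor, differed little: Zp3 had 56.7 and 67.1, 59.8 and 60.7, and 58.3 and 60.9, and Gdf9 had 275 and 308, 271 and 268, and 249 and 250.

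Of the 25 tested genes of minor genome activation and the 2-cell stage, 19 were higher and 6 lower, with 3 higher and 1 lower at an unadjusted p under 0.05 and none called. The median was 0.15, with 0.08, 0.13 and 0.13 in DMSO, CBR and CBR+SAM. Tcstv1, a gene of the 2-cell stage, had 138 and 193, 131 and 184, and 165 and 234, a difference of 0.49 ± 0.11 (log2, adjusted p = 0.198, limma), and its paralog Tcstv3 had 27.6 and 35.4, 20.02 and 34.97, and 32.9 and 44.7. Zscan4d, of the 2-cell Zscan4 family, had 7.41 and 10.9, 7.51 and 5.90, and 6.44 and 8.36, so its replicate groups overlapped. Obox1, an oocyte-specific homeobox gene, had 5421 and 5608, 6130 and 6723, and 6476 and 7071.

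**Figure D5:**
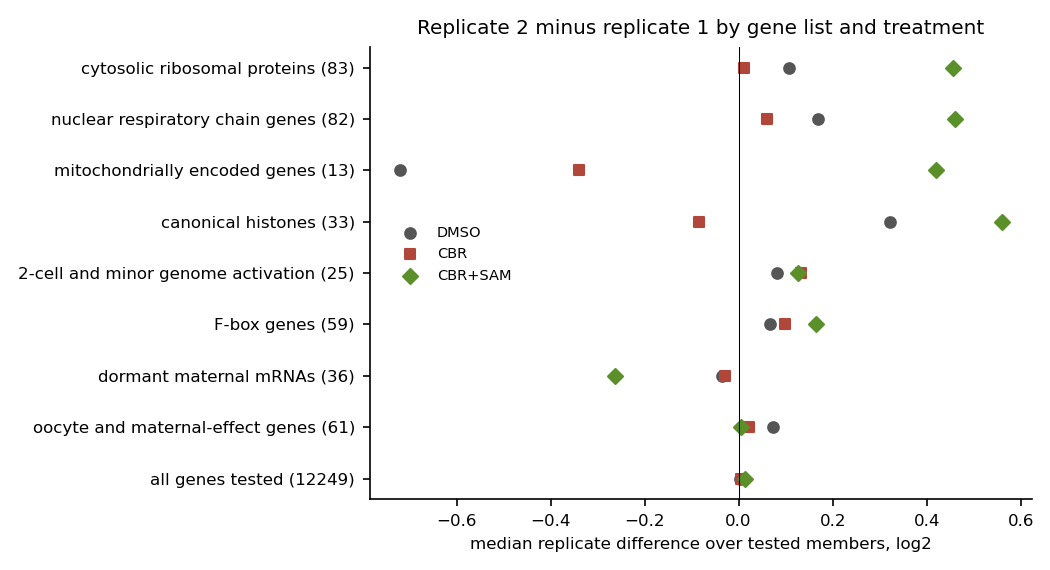
Median replicate difference (log2, horizontal axis) over the tested members of 8 gene lists and over all genes tested, by treatment (number of tested members in brackets). The all-gene medians lie near 0, while mitochondrially encoded genes run from -0.72 in DMSO to 0.42 in CBR+SAM.

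In the further lists named here no gene was called, beside 0.376% of all tested records. Of 59 tested F-box genes, 36 were higher and 23 lower (6 higher and 1 lower at an unadjusted p under 0.05), and Fbxw19, of the oocyte Fbxw cluster, had 518 and 825, 534 and 650, and 584 and 929. None of the 42 genes of DNA replication was called, where Gmnn, the licensing inhibitor geminin, had 476 and 713, 586 and 772, and 571 and 969. The 52 genes of DNA repair and checkpoint held Chek2, a checkpoint kinase, with 31.6 and 42.5, 42.3 and 67.1, and 46.5 and 104, so its replicate groups overlapped. None of the 45 genes in the list of histone methyltransferases and demethylases, or of the 20 of DNA methylation, had an unadjusted p under 0.05. Kdm5d, a histone demethylase kept in the list of Y-linked genes, had 144 and 106, 135 and 105, and 169 and 106, lower in each replicate 2 library and not called (unadjusted p = 0.00587, adjusted p = 0.240, limma).

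Some genes differed between replicates in 1 treatment far more than in the others. By the spread of the 3 differences, among genes whose mean reached 10, these included Iglj3, Fam166a, Ulk4 and Napa. Iglj3, an immunoglobulin J segment, was listed at 0 in DMSO replicate 1 and had 354 in replicate 2, with 111 and 190 in CBR and 133 and 195 in CBR+SAM. Its annotated transcript is only 38 bases long, so its length-scaled values are uncertain. Ulk4, a pseudokinase, had 59.0 and 36.1, 58.1 and 32.7, and 32.3 and 103, and Napa, a factor that disassembles SNARE complexes, had 28.5 and 26.3, 25.3 and 27.0, and 39.8 and 11.0. In Fam166a, Ulk4 and Napa it was CBR+SAM replicate 2 that stood apart from the other 5 libraries.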

How the data were processed

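Per the labels' protocols, cDNA of wild-type mouse 1-cell embryos was made with SMART-Seq v4 and sequenced as Nextera XT libraries; neither strand marking nor molecular identifiers are described. The authors deposited a signal value for each gene record in each library, on a length-scaled abundance scale like TPM. Tools named in the submitters' processing notes are kallisto, fastp and DESeq2, with the build mm10, and neither versions nor roles are given. Since the column sums differ, the deposited signal values had been rescaled in a way that is not given in the sources used here, and no count test was applied. Values were used as log2(value + 1), where the change of a low gene comes out smaller than it is. limma 3.58.1 in R 4.3.3 was fitted over the 12249 records that reached 1 in 2 libraries or more, with treatment as a block, a trended prior (4.21 degrees of freedom) and 2 residual degrees of freedom, with Benjamini-Hochberg adjustment and a threshold of 0.05. An exact permutation of 3 against 3 libraries cannot go below p = 0.1, so summed values of lists carry no p. Symbols (35820 matched), classes and coordinates are from GENCODE M21 on mm10, and copies were found with blastn 2.17.0.

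On simulated data the share of false calls kept to the threshold where gene variances followed the fitted trend, and was above it where they did not. An adjusted p near 0.05 may therefore understate the error rate.

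The pairing of same-numbered replicates was unclear by the correlation check: over all tested records 1 of the 3 correlations (0.091) was not over 0.1, while over genes whose mean reached 10 the lowest was 0.12. The check was read over all tested records, so the treatment comparisons had no replicate block. The comparison, the gene lists and the rule for named genes were chosen with earlier results of these data known. The rule named called genes with an established name whose mean reached 10, and the smallest p-values after them. Both kinds had to have 1 direction in all 3 treatments and replicate groups that did not overlap. It also named up to 2 genes per direction of each list, a fixed set, and the 5 genes of largest spread. Not every gene so named is printed.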

Additional observations from a re-analysis of the deposited data

Results flagged for a closer look

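The summed mitochondrially encoded genes were the result whose replicate difference had opposite signs between treatments in every one of the 13 genes. The log2 change of the sum from replicate 1 to replicate 2 was -0.73 in DMSO and -0.43 in CBR, against 0.50 in CBR+SAM. With 1 pair of libraries per treatment, this difference was not tested. Groups of 3 libraries are too small for the check for a single outlying sample.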

How the results depend on the processing

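The count of 46 called records was recomputed under 20 planned settings and 1 added after the data were seen, and ran from 1 to 281. With no filter on low values 1 record was called, and with a mean of at least 10 it was 26, where fewer records were tested. Without the treatment block 114 were called, with array weights 281, without both CBR libraries 77 and without both CBR+SAM libraries 164. Leaving out 1 library at a time, which also takes its pair out of the comparison, gave 45 to 172 calls. The other settings (pseudocount 0.1, 3 scalings, protein-coding genes alone, no trend, robust prior, without both DMSO libraries, no near-identical copies) gave 37 to 52. Array weights, which gave the CBR+SAM libraries 0.363 and the DMSO libraries 2.435, kept all 46. Gm7525 alone kept its call without the filter. The cause of these shifts was not tested. No called record changed direction under any setting. In the comparisons of treatments, a replicate block left the counts of called genes at 0 for CBR against DMSO, 1 for CBR+SAM against CBR and 1 for CBR+SAM against DMSO, the same as with no replicate block. The 3 correlations between replicate differences over all genes were 0.392, 0.218 and 0.091. Depth is an estimate, so the share of the spread that comes from counting is unknown.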
